A study of Mus musculus with 25 samples.

Results

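The Slc2a genes encode the facilitative hexose transporters (GLUT proteins), and 10 of them were described here in pgWAT, the perigonadal white fat beside the epididymis, across mice with and without the transcription factor ChREBP. The members were Slc2a1, Slc2a2, Slc2a3, Slc2a4, Slc2a5, Slc2a6, Slc2a8, Slc2a9, Slc2a12 and Slc2a13, chosen by name on the array and not by their values, among 25908 genes that passed the filter on dim probes. The array carried 19 probes named for these genes, of which 13 passed that filter and 6 did not, and each of the 10 genes kept at least 1 probe. The 6 probes that did not pass lay on Slc2a3, Slc2a6, Slc2a12 and Slc2a13 (1 each) and Slc2a9 (2), close to the local background.

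Single-colour arrays of 25 male C57BL6/J mice were compared in 4 groups. ChREBPβ KO mice (6 arrays) carry a CRISPR/Cas9 deletion of exon 1b of Mlxipl, the ChREBP gene, from which the ChREBPβ isoform starts, and ChREBPβ WT mice (7 arrays) are wild types of that line. Total ChREBP KO mice (5 arrays) are Mlxipl-null and lack ChREBPα as well as ChREBPβ, and total ChREBP WT mice (7 arrays) are wild types of that line. Both deletions act in the whole body, so fat and the other organs lack the same protein. All mice, wild types included, were fasted for 24 h and then refed for 18 h while drinking 20% glucose, a treatment that activates ChREBP. No group was kept fasted or without glucose, and the age of the mice was not given in the sources used here. The comparisons asked which transporter transcripts depend on ChREBPβ alone, which depend on the gene as a whole, and whether these effects differ.

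GLUT proteins carry hexoses across membranes down their concentration gradient, each with its own choice of sugar. GLUT4, the product of Slc2a4, is stored in vesicles of fat and muscle cells and moves to the cell surface in response to insulin, so it sets insulin-driven glucose entry into adipocytes, whereas GLUT1 (Slc2a1) serves basal uptake in most cells. ChREBP is a glucose-sensing factor that binds with its partner Mlx to carbohydrate response elements, paired E-box-like motifs, near glycolytic and lipogenic genes, and in fat the glucose that reaches it enters through GLUT4.

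The promoters of Slc2a5 and Slc2a13 are shown because these transporters had the largest fall and the largest rise of the members' brightest probes in mice lacking total ChREBP. The 250 bases before each annotated start are given on the gene's strand, from RefSeq (GRCm38.p6). Those of Slc2a5 lie at chr4:150119094-150119343 (plus strand) and those of Slc2a13 at chr15:91573262-91573511 (minus strand). Capitals mark CCGCCC, the GC box bound by Sp family factors, a motif chosen after the letters had been seen.

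Slc2a5: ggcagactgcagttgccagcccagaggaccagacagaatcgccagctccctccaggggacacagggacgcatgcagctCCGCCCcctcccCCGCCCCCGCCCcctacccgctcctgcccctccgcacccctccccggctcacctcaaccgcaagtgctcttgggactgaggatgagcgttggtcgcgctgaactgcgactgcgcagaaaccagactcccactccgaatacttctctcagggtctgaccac

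Slc2a13: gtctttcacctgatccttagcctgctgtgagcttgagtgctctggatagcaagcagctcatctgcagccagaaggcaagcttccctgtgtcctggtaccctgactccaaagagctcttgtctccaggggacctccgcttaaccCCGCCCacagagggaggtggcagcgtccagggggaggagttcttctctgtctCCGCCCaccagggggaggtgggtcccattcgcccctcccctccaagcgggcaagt

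Of the members, 8 had such a stretch in the RefSeq table (Slc2a1, Slc2a2, Slc2a5, Slc2a6, Slc2a8, Slc2a9, Slc2a12 and Slc2a13). CCGCCC, searched on both strands, occurred 3 times in the Slc2a5 stretch, with 2 copies adjoining, 2 times in that of Slc2a13, 2 times in that of Slc2a1 and 1 time in that of Slc2a6. It was present in 4 of the 8 member promoters and in 32.7% of all 32851 promoters of the same length. G and C made up 66.4% of the Slc2a5 stretch and 61.2% of the Slc2a13 stretch, against a median of 52.4% over all promoters. The E-box CACGTG and the carbohydrate response element consensus, which can overlap CACGTG, were searched on both strands in these windows too. Neither occurred in any of the 8, and they occurred in 6.02% and 0.0974% of all promoters. A match is a description of the letters, and a window without a match says nothing about binding elsewhere at the gene.

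Levels are given as log2 of the spot intensity after quantile normalisation between arrays, and 1 unit is a 2-fold step. They compare arrays within a gene, not genes with each other, since probes differ in brightness. A gene is described by its brightest kept probe unless another probe is named. Median raw intensities per array were 84 to 127 against a local background of 15 to 22. All 10 adipocyte markers were well above background on every array, with a summed intensity of 1750273 to 2219999. The brightest probe of Mlxipl, the targeted gene, gave 14.70 to 15.43 in ChREBPβ WT against 14.02 to 14.70 in ChREBPβ KO and 15.64 to 16.28 in total ChREBP WT against 14.08 to 14.29 in total ChREBP KO, and its place relative to the deleted sequence was not known. RNA of other organs was also present. Liver markers were lower in the total ChREBP line, both between the wild types and between the knockouts. Within that line 2 of 10 were also called lower in the knockouts, and within the ChREBPβ line 0 were called. The summed intensity of 10 liver markers was 109346 to 1031851 in ChREBPβ WT, 38711 to 776345 in ChREBPβ KO, 4310 to 165810 in total ChREBP WT and 3944 to 6145 in total ChREBP KO. Kidney tubule, epididymis or testis germ cell markers were high on 7 arrays (4 ChREBPβ WT, 2 total ChREBP WT, 1 total ChREBP KO). Of the 10 markers in each of these lists, 5, 2 and 7 were measured. In bulk tissue, fewer cells of a type and less RNA per cell cannot be told apart.

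In mice lacking total ChREBP, 3 of the 10 transporters were called at their brightest probe. Slc2a12 was not, but its dimmer kept probe was called and rose by 1.39 log2 units. Slc2a5, the fructose carrier GLUT5, fell 108-fold, to values near background, so that the size depended on background handling (-5.91 to -8.13 log2 units over the alternatives). Slc2a4 fell 2.63-fold and Slc2a13, the proton-coupled myo-inositol carrier, rose 3.86-fold. Of all genes, 9.36% were called in this comparison at a Benjamini-Hochberg adjusted p under 0.05 in limma (5.74% higher and 3.62% lower). The knockout arrays lay wholly apart from the wild types for the same 3 members, as they did for 7.58% of all genes. The median size of the members' differences was 0.42 log2 units, against 0.11 over all genes, and the median signed difference was 0.04, against 0.02.

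In mice lacking ChREBPβ alone, 0 of the 10 transporters were called by limma, with 1 (Slc2a5) at an unadjusted p under 0.05. The share of all genes called was 0.00772%, and 9.71% had an unadjusted p under 0.05. No member separated the arrays completely, against 0.0695% of all genes. The median size of the members' differences was 0.11 log2 units, against 0.08 over all genes. The difference between the effects, tested as an interaction in the same model, was called for Slc2a4, Slc2a5 and Slc2a13 (3 of 10, against 3.49% of all genes).

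**Figure D1:**
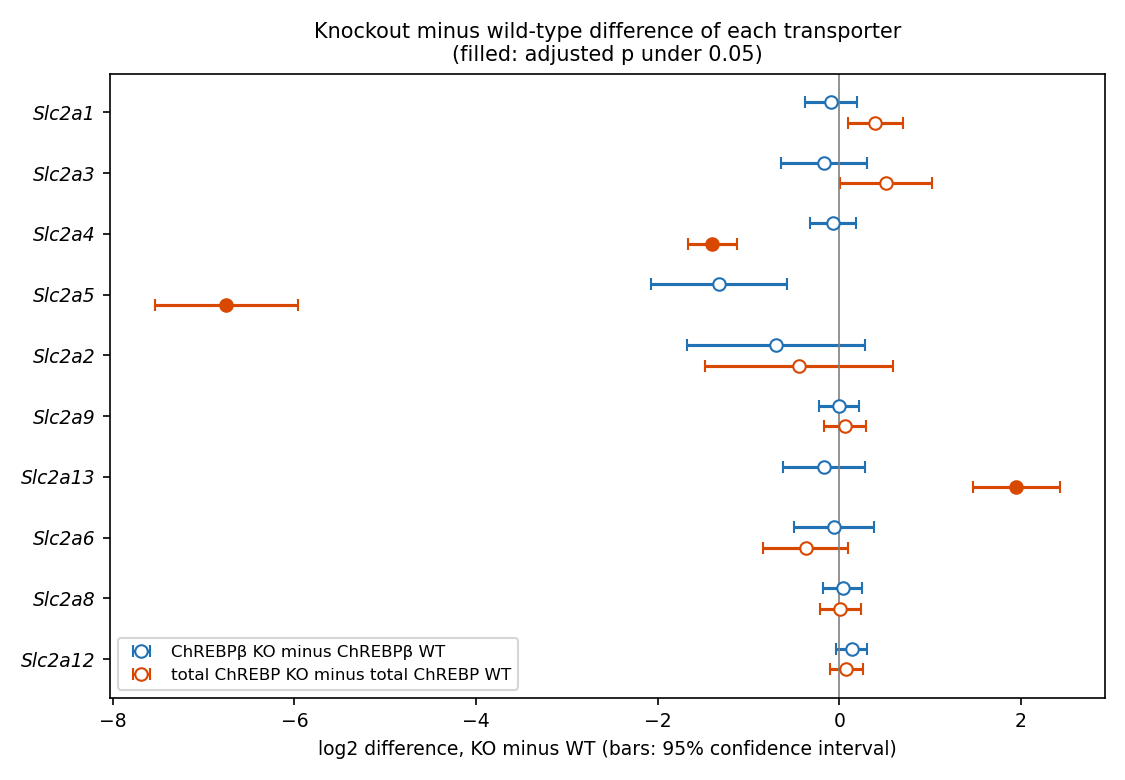
Log2 difference with its 95% confidence interval for each of the 10 transporters, knockout minus wild type, in the ChREBPβ line beside the total ChREBP line. The 3 called members stand at -6.75 (Slc2a5), -1.40 (Slc2a4) and 1.95 (Slc2a13) in the total ChREBP comparison, and no member was called in the ChREBPβ comparison.

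The wild types of both lines also differed, with 4 members called (22.2% of all genes were called) and 3 with arrays wholly apart (5.53% of all genes). Slc2a5, Slc2a4 and Slc2a8 were higher and Slc2a2 was lower in the wild types of the total ChREBP line (13.4% of all genes were higher and 8.71% lower). Between the knockouts, 5 members were called (18.4% of all genes) and 3 lay wholly apart (12.6% of all genes). Slc2a1 and Slc2a13 were higher, and Slc2a2, Slc2a4 and Slc2a5 lower, in total ChREBP KO than in ChREBPβ KO (11.3% of all genes were higher and 7.13% lower). Each of these comparisons sets one line against the other, so line, litter and genotype cannot be told apart in them, and each shares its arrays with the comparisons above.

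**Figure D2:**
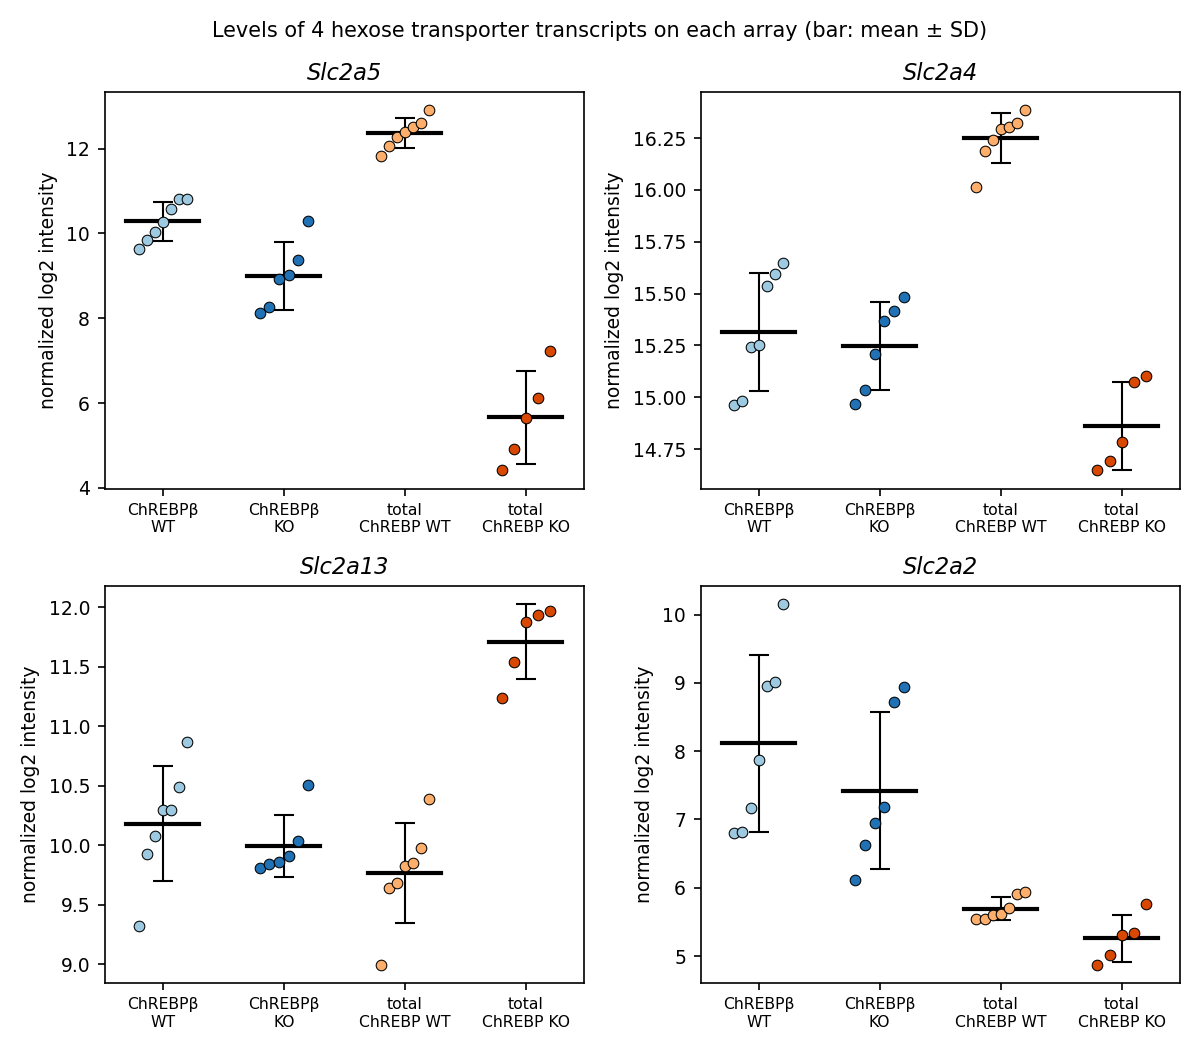
Normalised log2 intensity of Slc2a5, Slc2a4, Slc2a13 and Slc2a2 on each of the 25 arrays (points) with the mean and SD of each group (bars), on an axis per gene. In Slc2a5 the 5 total ChREBP KO arrays lie between 4.41 and 7.23, below all 20 others, and in Slc2a13 they lie between 11.24 and 11.97, above all others.

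Slc2a4 encodes the insulin-responsive carrier GLUT4 (probe A_51_P217498, chromosome 11, 69756073 to 69756132, mm9). Its log2 level was 14.96 to 15.65 (median 15.25) in the 7 ChREBPβ WT arrays and 14.97 to 15.48 (median 15.29) in the 6 ChREBPβ KO arrays. It was 16.01 to 16.39 (median 16.29) in the 7 total ChREBP WT arrays, and 14.65, 14.69, 14.78, 15.07 and 15.10 in the 5 total ChREBP KO arrays. The total ChREBP WT arrays stood above every array of the other 3 groups, and the ChREBPβ groups overlapped from end to end.

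Slc2a4 fell by 1.40 (SE 0.13) in total ChREBP KO, with a 95% confidence interval of -1.67 to -1.13 and an adjusted p of 1.41e-07 in limma. Within the 4 wash batches, each holding all groups, the difference was -1.36, -1.49, -1.21 and -1.55. In ChREBPβ KO it was -0.07 (SE 0.12, interval -0.33 to 0.19, adjusted p = 0.919 in limma). The effects differed by -1.33 (SE 0.18, adjusted p = 6.73e-05 in limma). The adipocyte markers did not move down with Slc2a4. In total ChREBP KO 3 of the 10 were higher and 0 lower, and their summed intensity, 2178910 to 2219999, was above the 1799847 to 1972857 of total ChREBP WT.

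Between lines, wild types of the total ChREBP line had 1.91-fold more Slc2a4 than those of the ChREBPβ line (0.93 log2, SE 0.12, adjusted p = 2.24e-05 in limma), and all 7 arrays were above. With liver and kidney marker scores as covariates this difference was 0.64 (adjusted p = 0.064 in limma). The liver markers themselves differed between the lines, so fits with these covariates cannot separate liver signal from line in comparisons between the lines. Between the knockouts Slc2a4 was lower by 0.39 log2 units in total ChREBP KO, at -0.39 (SE 0.13, adjusted p = 0.0464 in limma), with 3 of 5 arrays below all ChREBPβ KO arrays. This call held in 10 of 17 alternatives and in 11 of the 25 fits that left out 1 array (-0.46 to -0.31 over those fits).

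A further Slc2a4 probe, A_55_P2734837, starts 1236 bases upstream on the gene's strand. Its log2 level was 8.82 to 9.58 in the wild types of the total ChREBP line and 8.31 to 8.60 in their knockouts, so these groups did not overlap. It was 7.67 to 8.92 in ChREBPβ WT and 7.64 to 8.11 in ChREBPβ KO. It fell by 0.78 (SE 0.16, adjusted p = 0.00207 in limma) in total ChREBP KO, the same direction as the brighter probe. It went the other way between the knockouts, where it was higher in total ChREBP KO by 0.57 (SE 0.16, adjusted p = 0.0161 in limma). The direction of Slc2a4 between the knockout groups therefore depended on the probe. The difference between the effects at this probe was -0.56 (adjusted p = 0.212 in limma).

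**Figure D3:**
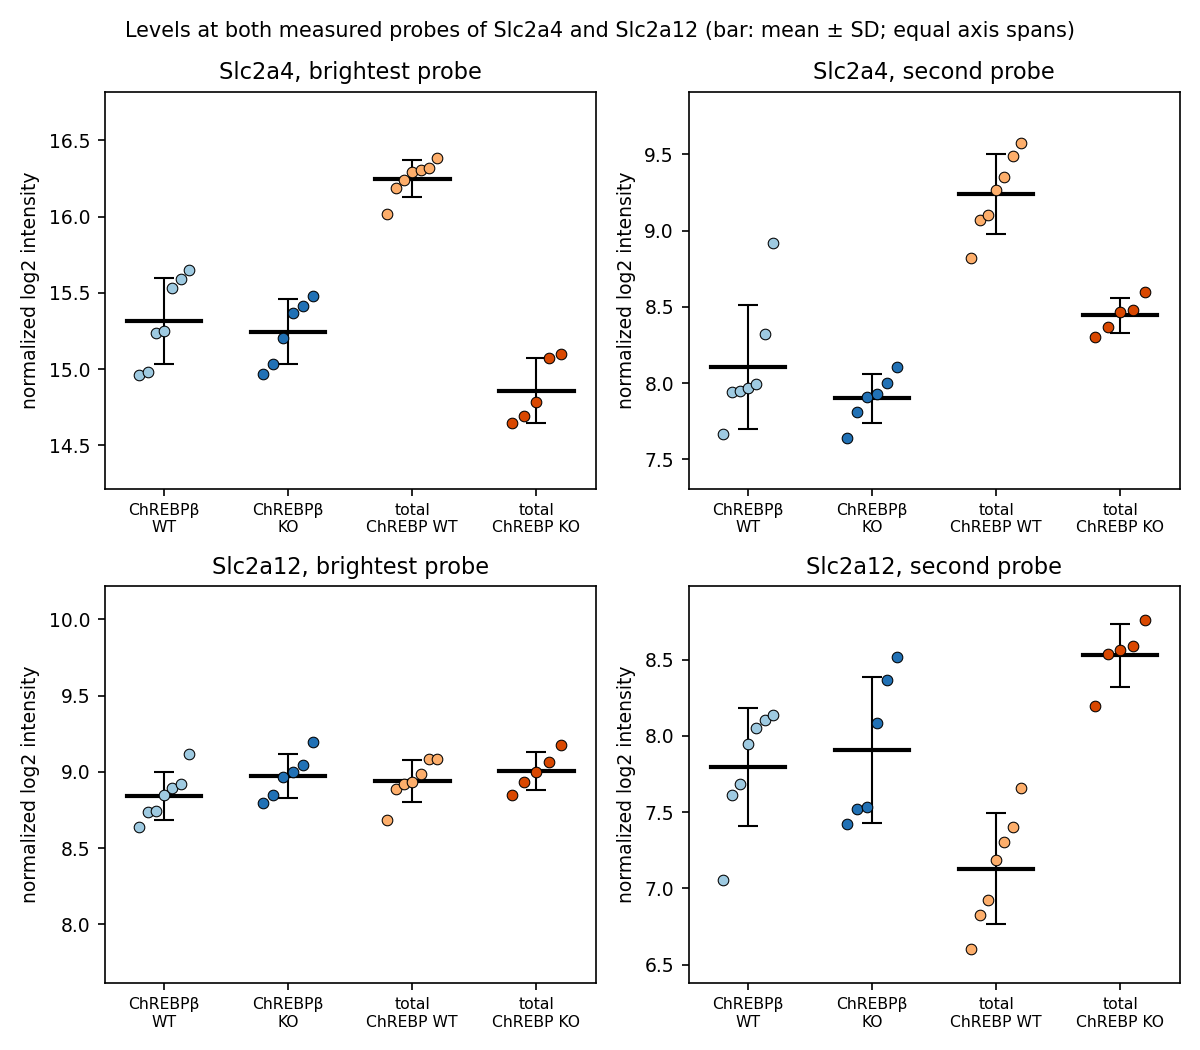
Normalised log2 intensity on each array at both kept probes of Slc2a4 and of Slc2a12, by group, with the mean and SD of each group as bars. Both Slc2a4 probes were lower in total ChREBP KO than in their wild types, while for Slc2a12 only the probe with means of 7.13 and 8.53 in these groups was called.

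Slc2a1, the basal glucose carrier GLUT1 (probe A_51_P464738, chromosome 4, 118809864 to 118809923, mm9), lay between 9.88 and 10.82 in ChREBPβ WT and between 9.98 and 10.52 in their knockouts, on the log2 scale. It was 10.02 to 10.68 in total ChREBP WT, and 10.52, 10.61, 10.71, 10.74 and 10.76 in total ChREBP KO. Of the 5 knockout arrays, 3 were above all of their wild types. The difference was 0.40 (SE 0.14, interval 0.10 to 0.70, adjusted p = 0.101 in limma), which missed the threshold. Without the 7 arrays high in kidney, epididymis or testis markers it was 0.51 and passed (adjusted p = 0.0262 in limma). Between the knockouts Slc2a1 was higher in total ChREBP KO by 0.45 (SE 0.15, adjusted p = 0.0417 in limma), a call lost in 3 of 17 alternatives and without total ChREBP KO replicate 1, 2, 4 or 7 or ChREBPβ KO replicate 2, 3, 6 or 8 (0.37 to 0.46).

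Slc2a3, the high-affinity glucose carrier GLUT3 known from neurons and leukocytes (probe A_52_P354744, chromosome 6, 122678075 to 122678134, mm9), spread widely within the wild types. In ChREBPβ WT it lay at 8.32, 8.38 and 8.41 on 3 arrays and between 9.44 and 9.75 on the other 4. The 3 low arrays, replicates 3, 7 and 4, had the highest liver marker scores (4.40, 4.14 and 3.81, the mean log2 deviation of 10 genes). They also had the highest Slc2a2 and the lowest Slc2a1. Replicate 6, with a nearby liver score of 3.67, had an Slc2a3 of 9.48 and an Slc2a2 of 7.87. The part of the liver signal in these values was not tested. Slc2a3 was 8.39 to 9.97 in total ChREBP WT and lay between 9.26 and 9.53 in their knockouts. The difference of 0.51 (SE 0.24) had an adjusted p of 0.233 in limma, and that for ChREBPβ was -0.17 (adjusted p = 0.889 in limma).

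Slc2a5 encodes GLUT5, which carries fructose rather than glucose (probe A_51_P514405, chromosome 4, 149517775 to 149517834, mm9). Its log2 level was 9.64 to 10.82 (median 10.26) in ChREBPβ WT. In ChREBPβ KO it was 8.11, 8.26, 8.92, 9.02, 9.36 and 10.30, with 5 of the 6 arrays below every wild type and only replicate 4 within their range. In total ChREBP WT it was 11.82 to 12.91 (median 12.40). In total ChREBP KO it was 4.41, 4.92, 5.64, 6.11 and 7.23.

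The total ChREBP KO arrays were below all others by a wide margin. Their raw intensities were 18 to 172.5, against 3867 to 7219 in total ChREBP WT. The spot was well above background on 4 of these 5 arrays, and not on the array at 4.41. The highest of the 5, replicate 4, was the one high in testis germ cell markers (score 2.13) and in intestine markers (score 1.33, against -1.99 to 0.05 on the others). The ChREBPβ KO array within the wild-type range, replicate 4, also had the highest intestine score of its group (1.74). That array had a liver score of 3.58 and the highest epididymis score of its group (0.84) as well. The wild types did not show this order. In ChREBPβ WT the highest intestine score (1.66) lay on the array at 10.04 and the lowest (0.18) on the array at 10.82. In total ChREBP WT the highest (1.48) lay on an array at 12.28, below the group's median. Of the 10 intestine markers 5 were measured, and 0 of them were called within either line. Only 2 of the 10 epididymis markers were measured. The ChREBPβ WT array at 10.04 also had the highest liver score of its group (4.40). In ChREBPβ KO replicate 3, however, an intestine score of 0.77 went with a liver score of -0.77. The part of intestine, liver or epididymis RNA in the Slc2a5 values was not tested.

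Slc2a5 fell by 6.75 (SE 0.38) in total ChREBP KO, with an interval of -7.54 to -5.96 and an adjusted p of 1.11e-10 in limma, and within the wash batches the difference was -6.07, -6.90, -7.99 and -6.38. The fold of 108, on intensities not corrected for background, had an interval of 62.3 to 186. With normexp background correction the difference was -5.91, and with the scanner's background-subtracted signal it was -8.13. Without the 7 arrays high in kidney, epididymis or testis markers the difference was -7.23. In ChREBPβ KO the difference was -1.32 (SE 0.36, interval -2.07 to -0.58), or 2.50-fold, with an unadjusted p of 0.0014 and an adjusted p of 0.297 in limma. It was below 0 in each wash batch, at -1.14, -1.34, -1.20 and -1.49. The effects differed by -5.43 (SE 0.52, adjusted p = 1.06e-06 in limma).

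The wild types of the lines differed in Slc2a5 too. Wild types of the total ChREBP line had 4.25-fold more of it than ChREBPβ WT mice (2.09 log2, SE 0.34, adjusted p = 0.000236 in limma), with all 7 arrays above. Liver and kidney scores as covariates left 1.88 (adjusted p = 0.0946 in limma). Between the knockouts it was lower in total ChREBP KO, at -3.34 (SE 0.39, adjusted p = 1.07e-05 in limma).

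**Figure D4:**
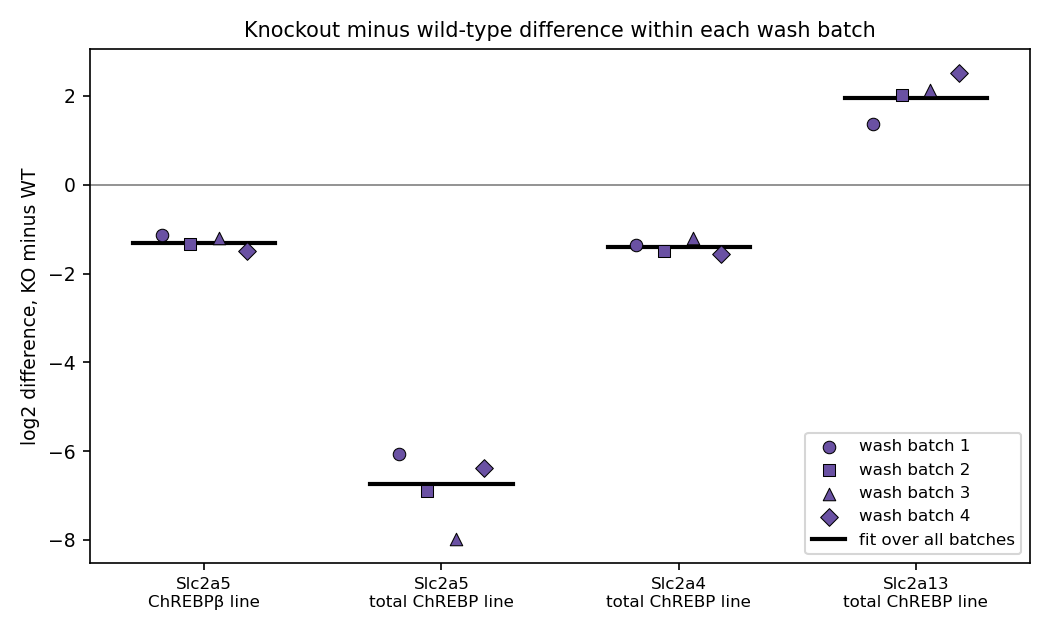
Difference between knockout and wild type within each of the 4 wash batches (markers) and in the fit over all batches (lines), in log2 units, for Slc2a5 in both lines and for Slc2a4 and Slc2a13 in the total ChREBP line. All 4 batches keep the sign of the fitted difference, with -6.07 to -7.99 for Slc2a5 in the total ChREBP line.

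Slc2a2 encodes GLUT2, the low-affinity carrier of hepatocytes, kidney tubule, intestine and pancreatic beta cells (probe A_52_P409988, chromosome 3, 28625253 to 28625961, mm9, a span that includes an intron). Its log2 level was 6.81 to 10.15 (median 7.87) in ChREBPβ WT and 6.11 to 8.94 (median 7.07) in ChREBPβ KO. It was 5.54 to 5.94 (median 5.61) in total ChREBP WT, and 4.87, 5.02, 5.31, 5.34 and 5.77 in total ChREBP KO. Every array of the ChREBPβ line was above every array of the total ChREBP line.

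In the ChREBPβ line, high Slc2a2 lay on arrays with high liver scores. The 3 highest ChREBPβ WT values (10.15, 9.02 and 8.96) were on the arrays with liver scores of 4.40, 3.81 and 4.14, the 3 highest of that group. ChREBPβ WT replicate 6, with a liver score of 3.67, had 7.87. The kidney tubule scores of the 3 highest arrays were 2.92, -0.34 and 1.33, in the same order, and their part in these values was not tested. The 2 highest ChREBPβ KO values (8.94 and 8.72) had liver scores of 3.88 and 3.58. This was not so within total ChREBP KO, where the array with the highest liver score (-3.31) had the lowest Slc2a2 (4.87). Raw Slc2a2 intensities were low there, at 31 to 46, and 39 to 70.5 in total ChREBP WT, against a local background of 15 to 22. The order of such low values is a description only, and the folds between the lines rest on them. Total ChREBP WT replicate 2, with a liver score of 1.51, had an Slc2a2 of 5.94, below the 6.81 of ChREBPβ WT replicate 1, whose liver score was 0.58. The kidney tubule scores of these arrays were -0.45 and 2.48, and the part of kidney RNA in their Slc2a2 values was not tested. All 10 liver markers were lower in the total ChREBP line, both between the wild types and between the knockouts.

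Between the wild types, Slc2a2 was 5.35-fold lower in the total ChREBP line (-2.42 log2, SE 0.45, adjusted p = 0.000668 in limma). With the liver and kidney scores as covariates the difference was -0.21 (adjusted p = 0.873 in limma). Between the knockouts it was 4.48-fold lower in total ChREBP KO (-2.16 log2, adjusted p = 0.00523 in limma), and 0.19 with the covariates (adjusted p = 0.888 in limma), a turn of direction. Within the lines the differences were -0.70 in ChREBPβ KO (adjusted p = 0.702 in limma) and -0.44 in total ChREBP KO (adjusted p = 0.714 in limma), and with the covariates they turned to 0.064 and 0.46, none called. The mean liver score was 3.05 in ChREBPβ WT and -1.70 in total ChREBP WT, and 1.77 and -4.02 in their knockouts. The covariate fits between the lines therefore cannot separate liver signal from line.

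**Figure D5:**
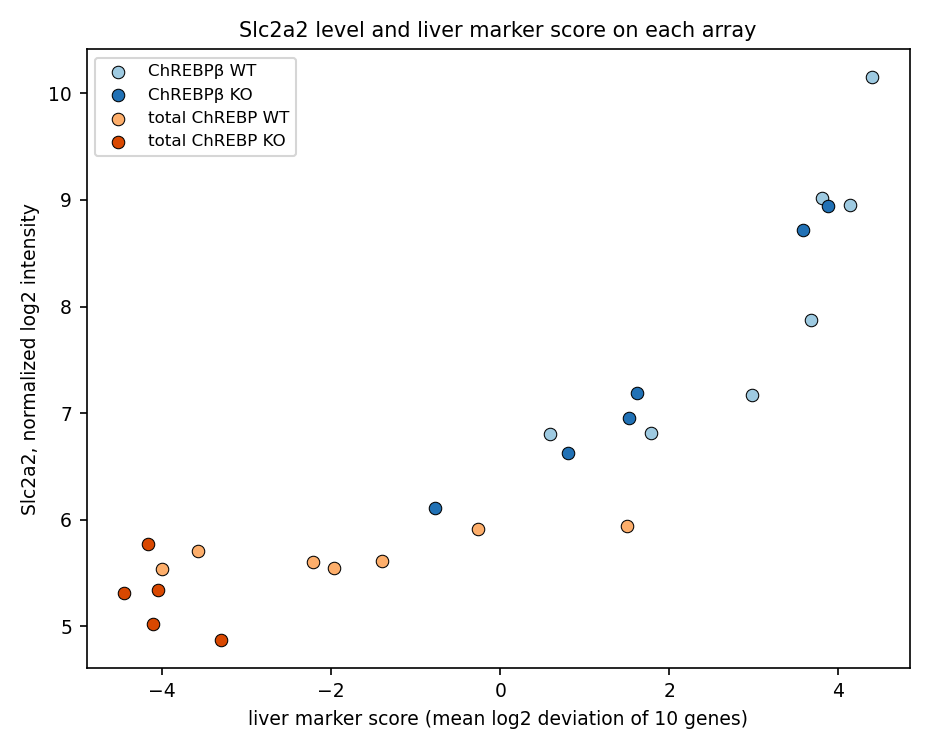
Normalised log2 intensity of Slc2a2 on each of the 25 arrays against the liver marker score (mean log2 deviation of 10 liver genes from their mean over all arrays), coloured by group. The array with the highest score, 4.40, has the highest Slc2a2, 10.15, and also the highest kidney tubule score, 2.92. No array of the total ChREBP line exceeds 5.94.

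Slc2a13 encodes HMIT, which carries myo-inositol together with protons (probe A_55_P2041011, chromosome 15, 91098249 to 91098308, mm9). Its log2 level was 9.32 to 10.87 (median 10.30) in ChREBPβ WT and 9.81 to 10.51 (median 9.88) in ChREBPβ KO. It was 8.99 to 10.39 (median 9.83) in total ChREBP WT, and 11.24, 11.54, 11.88, 11.94 and 11.97 in total ChREBP KO. The total ChREBP KO arrays were above all 20 others, and the other 3 groups overlapped.

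Slc2a13 rose by 1.95 (SE 0.23) in total ChREBP KO, with an interval of 1.47 to 2.42 and an adjusted p of 4.16e-06 in limma. Within the wash batches the difference was 1.38, 2.02, 2.14 and 2.53. In ChREBPβ KO it was -0.17 (SE 0.22, adjusted p = 0.881 in limma), and the effects differed by 2.12 (SE 0.31, adjusted p = 0.000201 in limma). Between the wild types it was -0.42 (adjusted p = 0.164 in limma). Between the knockouts it was higher in total ChREBP KO by 1.70 (SE 0.24, adjusted p = 5.97e-05 in limma), and by 0.92 (adjusted p = 0.139 in limma) with liver and kidney scores as covariates.

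The other genes of inositol transport and synthesis did not rise with Slc2a13. Of 8 measured, 0 were higher and 2 were lower in total ChREBP KO. Impa2, an inositol monophosphatase that releases free inositol, had means of 11.24 in total ChREBP WT and 9.56 in their knockouts and fell by 1.68 (SE 0.18, adjusted p = 8.28e-07 in limma). Isyna1, the synthase that makes inositol phosphate from glucose 6-phosphate, had means of 12.63 and 10.97 and fell by 1.68 too (SE 0.25, adjusted p = 7.34e-05 in limma). The groups of both genes did not overlap. In ChREBPβ KO, Impa2 differed by -0.22 and Isyna1 by -0.68, neither called, and the difference between the effects was called for Impa2 (-1.46, adjusted p = 0.000701 in limma).

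Slc2a9 encodes the urate carrier GLUT9 (probe A_66_P103342, chromosome 5, 38808475 to 38808534, mm9). Its means were 6.97 and 6.94 in wild types and knockouts of the ChREBPβ line and 7.09 and 7.15 in those of the total ChREBP line. None of the 5 comparisons called it, with 0.06 (interval -0.17 to 0.30, adjusted p = 0.84 in limma) for total ChREBP KO. Of the other urate handling genes, 9 of 10 were measured, and 0 were called within either line.

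Slc2a6, Slc2a8 and Slc2a12 encode GLUT6, GLUT8 and GLUT12, of which GLUT6 and GLUT8 sit mainly on membranes inside the cell. Slc2a6 (probe A_55_P1960238, chromosome 2, 26876891 to 26876950, mm9) was 8.03 to 8.93 in total ChREBP WT and 7.61 to 8.15 in their knockouts. The difference was -0.37 (SE 0.22, adjusted p = 0.388 in limma), with 3 of 5 knockout arrays below all wild types. The other kept Slc2a6 probe, A_55_P1960237, had the opposite sign, 0.20 (adjusted p = 0.53 in limma). Slc2a8 (probe A_51_P358171, chromosome 2, 32831712 to 32831771, mm9) had means of 7.20 and 7.23 in the ChREBPβ groups and of 7.52 in both total ChREBP groups. Between the wild types it was higher in the total ChREBP line by 0.33 (SE 0.10, adjusted p = 0.0214 in limma), with 4 of 7 arrays above. The call was lost in 4 of 16 alternatives, among them the liver and kidney covariates (0.23, adjusted p = 0.508 in limma), and without total ChREBP WT replicate 4 (0.26) or ChREBPβ WT replicate 7 (0.26).

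Slc2a12 gave different answers at its kept probes. At the brighter one (A_55_P2146555, chromosome 10, 22424022 to 22424081, mm9) the means were 8.84 and 8.97 in wild types and knockouts of the ChREBPβ line and 8.94 and 9.0 in those of the total ChREBP line, and the difference for total ChREBP KO was 0.08 (adjusted p = 0.705 in limma). The other probe, A_51_P345775, starts 486 bases upstream. Its log2 level there was 6.6 to 7.66 in total ChREBP WT and 8.19 to 8.76 in their knockouts, so these groups did not overlap, and 7.05 to 8.51 in the ChREBPβ groups.

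That upstream probe of Slc2a12 rose by 1.39 (SE 0.20, adjusted p = 5.07e-05 in limma) in total ChREBP KO, with 1.47, 1.13, 1.80 and 1.11 within the wash batches. In ChREBPβ KO it differed by 0.07, and the effects differed by 1.32 (adjusted p = 0.00597 in limma). The mean of both probes gave 0.73 (adjusted p = 0.000964 in limma). The probes do not show which transcripts of Slc2a12 each one reads, and no run of 20 bases was shared by a member's probe and the probe of another gene.

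Slc2a4 acts through a machinery of vesicle sorting, and 19 genes of GLUT4 vesicle traffic were measured. In total ChREBP KO, 5 were higher, 1 was lower and 13 were not called, with a median of 0.07 against 0.02 over all genes. Ralgapa2, a subunit of the GTPase activator of the Ral proteins that dock the vesicles, fell by 1.05 (SE 0.19, adjusted p = 0.000938 in limma), and its arrays did not overlap. Sort1, the sortilin that forms the storage vesicles, rose by 0.41 and Myo1c, a motor of vesicle delivery, by 0.37. The Myo1c call was lost in 4 of 17 alternatives and without total ChREBP KO replicate 1, 3, 4 or 7 or total ChREBP WT replicate 2, 3, 4 or 8 (0.31 to 0.39). In ChREBPβ KO 0 of the 19 were called by limma, with 3 at an unadjusted p under 0.05.

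The steps after entry were measured too. Hk2, the hexokinase that traps glucose in insulin-sensitive tissues, had means of 13.37 and 13.14 in wild types and knockouts of the ChREBPβ line and of 14.32 and 12.80 in those of the total ChREBP line. This order of the 4 means was that of the brighter Slc2a4 probe, but not of the other, where total ChREBP KO (8.44) stood above both ChREBPβ groups (8.11 and 7.90). Hk2 fell by 1.53 (SE 0.13, adjusted p = 3.57e-08 in limma) in total ChREBP KO and differed by -0.24, which was not called, in ChREBPβ KO, and these effects differed (-1.28, adjusted p = 8.03e-05 in limma). Galk1, the galactokinase, fell by 0.49 (adjusted p = 0.0195 in limma), and the other 7 of the 9 hexose phosphorylation genes were not called. Of the glucose-6-phosphatase pathway, Slc37a4, the glucose 6-phosphate carrier of the endoplasmic reticulum, fell by 0.93 (adjusted p = 0.000789 in limma) and G6pc3, a widely expressed catalytic subunit, rose by 0.28 (adjusted p = 0.0311 in limma), out of 3. The G6pc3 call was lost in 3 of 17 alternatives and without total ChREBP KO replicate 1, 2, 4 or 7 or total ChREBP WT replicate 3, 5, 6 or 7 (0.26 to 0.30). That of Galk1 was lost in 2 of 17 alternatives and without total ChREBP KO replicate 3 (-0.47) or 7 (-0.39).

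The genes that act on fructose inside the cell did not move with Slc2a5. Of the 7 genes of fructose breakdown and the polyol pathway, 0 were called in total ChREBP KO by limma, with 3 at an unadjusted p under 0.05. Khk, the fructokinase, differed by -0.16 (adjusted p = 0.916 in limma) and Sord, sorbitol dehydrogenase, by 0.22 (adjusted p = 0.766 in limma). Khk and Sord are strongly expressed in liver, and both were lower in wild types of the total ChREBP line than in those of the ChREBPβ line (-1.81 and -1.27), as the liver markers were. Of the 5 arrestins and binding partners of hexose transporters, Arrdc3, an arrestin, rose by 0.51 (adjusted p = 0.00724 in limma) in total ChREBP KO. Txnip, the glucose-induced arrestin that binds GLUT1 and GLUT4, had means of 15.67 in total ChREBP WT and 15.47 in their knockouts, a difference of -0.18 (adjusted p = 0.401 in limma). Of the sodium-coupled hexose transporters, 3 of 6 were measured and 0 were called within either line. No gene of the 8 pathway lists was called in ChREBPβ KO.

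Genes with a pattern most like that of Slc2a5 and Slc2a13 were ranked by the mean absolute difference of log2 deviations from the gene's own mean over the 25 arrays, among 18621 named genes. For Slc2a13, whose own mean deviation was 0.63, they were Tmeff1 (0.306), Cnr1 (0.315), Nap1l5 (0.337), Klhl2 (0.344) and Pla2g2e (0.352). Cnr1 is the cannabinoid receptor CB1. For Slc2a5, with an own mean deviation of 1.95, they were Adcy10 (0.795), the bicarbonate-sensitive adenylyl cyclase, Pth1r (0.954), the parathyroid hormone receptor, Oscp1 (1.09), Slc25a48 (1.1) and Gm35986 (1.1). All 5 genes nearest to Slc2a13 were higher and all 5 nearest to Slc2a5 lower in total ChREBP KO, as the choice by likeness implies.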

How the data were processed

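RNA from pgWAT was labelled with Cy3 and hybridised by the authors to single-colour Agilent mouse arrays, 1 per mouse. Spots were measured with Agilent Feature Extraction 10.10.1.1, per the submitters' processing notes. The deposited scanner files hold, per the file headers, the median pixel intensity of each spot, not corrected for background. The authors' deposited series table holds log2 values of 40561 probes after quantile normalisation and a filter, and was used as an alternative, since its filter counted arrays beyond those analysed here. The scanner's flags set the filter, and its mean, background and processed intensities entered alternatives only.

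The log2 median intensity was quantile-normalised over the 25 arrays. Spots were kept where found, positive and well above background on 81.25% of arrays (21) or 75% of a group (6, 5, 6 and 4). Replicated probes were merged by their median, and values flagged as outliers were set to missing, none of them on a member. Each gene was taken by its brightest kept probe. The 39619 probes were fitted jointly on group and wash batch (limma 3.58.1 under R 4.3.3), with Benjamini-Hochberg adjustment over all of them and calls at an adjusted p under 0.05. When 200 of 39619 simulated probes were shifted by 1 log2 unit, the fit recovered 91% in the total ChREBP and ChREBPβ comparisons. The simulated noise was normal, independent between probes and free of batch effects, and the number of shifted probes bears on the adjusted threshold. In the measured ChREBPβ comparison only 2 of 25908 genes were called, so 91% is not the power for the members there. Precision is limited by how many arrays a group has.

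Groups came from the sample titles. The labels do not say whether mice shared a litter, and p-values measure the spread between these mice. The members, the 8 pathway lists, the 14 cell marker lists and the tests were chosen with earlier results of these data known. Named were all members, and per pathway list and comparison at most 4 called genes by size (1 of them is not reported here), with a few further genes named after their values were seen (Txnip, Khk, Sord). Probe positions are those of the array design on mm9, of which no annotation was used, so exon or UTR is not stated. Promoters came from RefSeq (GRCm38.p6), a different build. Alternatives changed the values, background correction, filter, spot weights, batch and replicate terms, array weights, variance model, arrays and probes used, and covariates. The exclusion of arrays high in kidney, epididymis or testis markers (score over 1) was chosen after seeing the data.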

Additional observations from a re-analysis of the deposited data

Results flagged for a closer look

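The effect of the deletion differed between the lines for 3 transporters, each by the interaction term of the same limma model over all probes. Slc2a4 differed by -1.33 log2 units, Slc2a5 by -5.43 and Slc2a13 by 2.12, taken as the total ChREBP effect minus the ChREBPβ effect. The lines have separate wild types, and those of Slc2a4 and Slc2a5 differed as well.

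In 2 of the 40 sets of arrays looked at (10 transporters in 4 groups), 1 array stood far from the rest of its group by Dixon's gap, which chance gives in about 1 of 20 sets. Slc2a6 was 9.56 in ChREBPβ WT replicate 6, and this array also had the highest macrophage marker score of its group (0.74, against -0.13 to 0.20 on the others) and lymphocyte marker score (1.19, against -0.26 to 0.27 on the others), the part of which in the value was not tested. Slc2a13 was 10.51 in ChREBPβ KO replicate 5, against 9.81 to 10.04 on the others.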

How the results depend on the processing

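The number of members called was recomputed under 17 alternatives (16 for the difference between the effects) and without each array in turn. In ChREBPβ KO it was 0 in all of them. In total ChREBP KO it was 2 to 4 and without single arrays 3 in each case, with 2 where a spot weight of 1 was required on every array, which left Slc2a5 untested and 5 members with a value, and 4 where Slc2a1 or the mean of the Slc2a12 probes passed. For the difference between the effects it was 2 to 3, and without single arrays 3. Without the 7 arrays high in kidney, epididymis or testis markers the counts were 0 for ChREBPβ, 4 for total ChREBP, 3 for the difference between the effects, 3 between the wild types and 5 between the knockouts. Between the wild types it was 4, and 3 to 4 without single arrays, but 1 with a spot weight of 1 on every array and 0 with liver and kidney scores as covariates. Between the knockouts it was 5, and 3 to 6 without single arrays, with 3 without ChREBPβ KO replicate 2, 3 or 8 or total ChREBP KO replicate 1. It was 3 with no filter on dim probes, 3 with a spot weight of 1 on every array and 1 with the covariates.

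The differences in total ChREBP KO were -8.13 to -5.91 for Slc2a5, -1.49 to -1.09 for Slc2a4 and 1.65 to 2.01 for Slc2a13 over the alternatives, and -7.07 to -6.41, -1.47 to -1.32 and 1.83 to 2.08 without single arrays, all called. The ChREBPβ difference of Slc2a5 was -1.48 to -1.25 and was never called. Of the members' called differences, 2 turned direction, both between the knockouts: Slc2a4 was 0.089 as the mean of both probes and Slc2a2 was 0.19 with the liver and kidney covariates. Uncalled differences turned too, such as Slc2a3 between the knockouts, from 0.50 to -0.34 with these covariates. Slc2a4 between the knockouts was called without 11 of the 25 arrays taken in turn. The cause of these shifts was not tested.

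The labels do not say whether replicate numbers pair the samples. Between groups, same-numbered arrays deviated together with r of -0.434 to 0.539 (29 pairs, median -0.0087, 9 over 0.1). For arrays of different numbers r was -0.628 to 0.644 (204 pairs, median -0.0158, 73 over 0.1). With the replicate number as a block, the member counts were 0 for ChREBPβ, 3 for total ChREBP and 3 for the difference between the effects, while Slc2a8 between the wild types (0.34, adjusted p = 0.0587 in limma) and Slc2a1 between the knockouts (0.44, adjusted p = 0.0756 in limma) were no longer called. The correlation used as a random block was -0.0114 and moved no member's call. Signal limits the probes near background, which hold the low Slc2a5 values of total ChREBP KO and the 6 probes not kept. Raw Slc2a2 intensities were low too in the total ChREBP line (31 to 70.5).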
